A study of Sus scrofa with 6 samples.

Results

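The genes described here, 6 in number, are known from glia, dopamine synthesis and myeloid cells. They gave higher signals in PK15, a pig kidney line, than in OBGF400, a neuroblast line from pig olfactory bulb. They are GFAP, MBP, DDC, AIF1, LAPTM5 and SPI1. They make up 6 of the 6765 genes with a single symbol in the platform annotation and are read by 13 of the 23999 probe sets that were tested. They were picked because of their difference between the lines on these arrays, so that difference is described here without a test. Each line has 3 Affymetrix porcine arrays, and each array carries one pool of RNA from untreated cultures, with 9 cultures per line. OBGF400 grew in DMEM/F12/HAM medium and PK15 in minimum essential medium with amphotericin B, both with 10% bovine calf serum, penicillin, streptomycin and gentamicin. The labels call PK15 non-neuronal and of epithelial origin, and the design treats it as the somatic background to the neuroblasts. Each group is a single line, so line, medium and any labelling or hybridization batch cannot be told apart, and p-values measure only the spread between pools of 1 line.

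As background, GFAP encodes an intermediate filament protein of astrocytes, and MBP encodes a major structural protein of the myelin sheath that oligodendrocytes and Schwann cells wrap around axons. DDC encodes the decarboxylase that turns L-DOPA into dopamine, in neurons and also in the proximal tubule of the kidney, where dopamine acts on sodium transport. AIF1, also called Iba1, is a calcium-binding protein used to stain microglia and macrophages, LAPTM5 is a lysosomal membrane protein of blood cells, and SPI1 encodes PU.1, an ETS-family transcription factor that directs myeloid and B cell development.

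The deposited values are log2 signals with a common lower limit of 2.13, called the floor below. A probe set is called at the floor when all 3 arrays of a line lie within 0.1 of it, and the size of a difference from it is set in part by the floor. The epithelial markers KRT8, KRT18, EPCAM and CDH1 had means of 2.18 to 2.83 in OBGF400, against 12.4 to 14.8 in PK15, the line labelled epithelial. The neural genes NCAM1, MAP2, UCHL1 and THY1 averaged 8.87 to 12.3 in OBGF400, against 2.13 to 3.54 in PK15. They were the 4 called higher of 11 neuron genes measured. Another 6, including SNAP25, SYT1, GAP43 and NEUROD1, were at the floor on all 6 arrays, and STMN1 was lower in OBGF400 (-1.58). Scaling the arrays on their spiked-in controls moves every gene: the median difference of all genes, OBGF400 minus PK15, was -0.002 as deposited, 0.82 once scaled on hybridization controls and -0.86 once scaled on poly-A controls (dap and thr). Differences smaller than these shifts can change sign with the scaling.

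The GFAP signal of PK15 came mainly from 1 of 4 probe sets. Ssc.5137.1.S1_at read 2.29, 2.81 and 2.81 in OBGF400, against 7.83, 7.43 and 7.96 in PK15. All 3 PK15 arrays lay far above all 3 OBGF400 arrays, a difference of -5.10, or -2.68 with 32 added to the linear values before taking log2. In bulk RNA, fewer cells that make a transcript and less of it per cell cannot be told apart. Ssc.26101.1.S1_at lay at the floor in OBGF400, at 2.14, 2.13 and 2.14, against 3.47, 3.87 and 2.60 in PK15. Its lines did not overlap either, but its PK15 arrays spread widely, and its difference of -1.18 became -0.22 with 32 added. The other two GFAP probe sets, Ssc.17032.1.S1_at and Ssc.26101.2.S1_at, were at the floor in both lines, with no array above 2.16. Thus 2 of the 4 GFAP probe sets separated the lines, 1 of them by a wide margin, and 2 gave no reading above the floor.

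On 3 of the 4 MBP probe sets each PK15 array lay above each OBGF400 array, on 1 of them by a small margin. Ssc.19359.1.A1_at read 2.51 on each OBGF400 array, against 7.78, 7.88 and 7.95 in PK15, a difference of -5.36 (-2.82 with 32 added). Ssc.19359.2.S1_at read 2.27, 2.28 and 2.27 in OBGF400, against 6.83, 7.26 and 7.27 in PK15, a difference of -4.85 (-2.22 with 32 added). These probe sets, which share the first number of their names, showed the same separation of the lines with no overlap. Ssc.13952.1.A1_at was at the floor in OBGF400, at 2.13 on each array, against 2.79, 2.22 and 2.53 in PK15. That is a difference of -0.38, which turned to 0.44 after scaling on hybridization controls. Ssc.4876.1.A1_at, the 1 MBP probe set that the annotation ties to a RefSeq mRNA of the gene, stood at 2.13 on all 6 arrays. That probe set therefore gave no reading above the floor in either line.

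**Figure D1:**
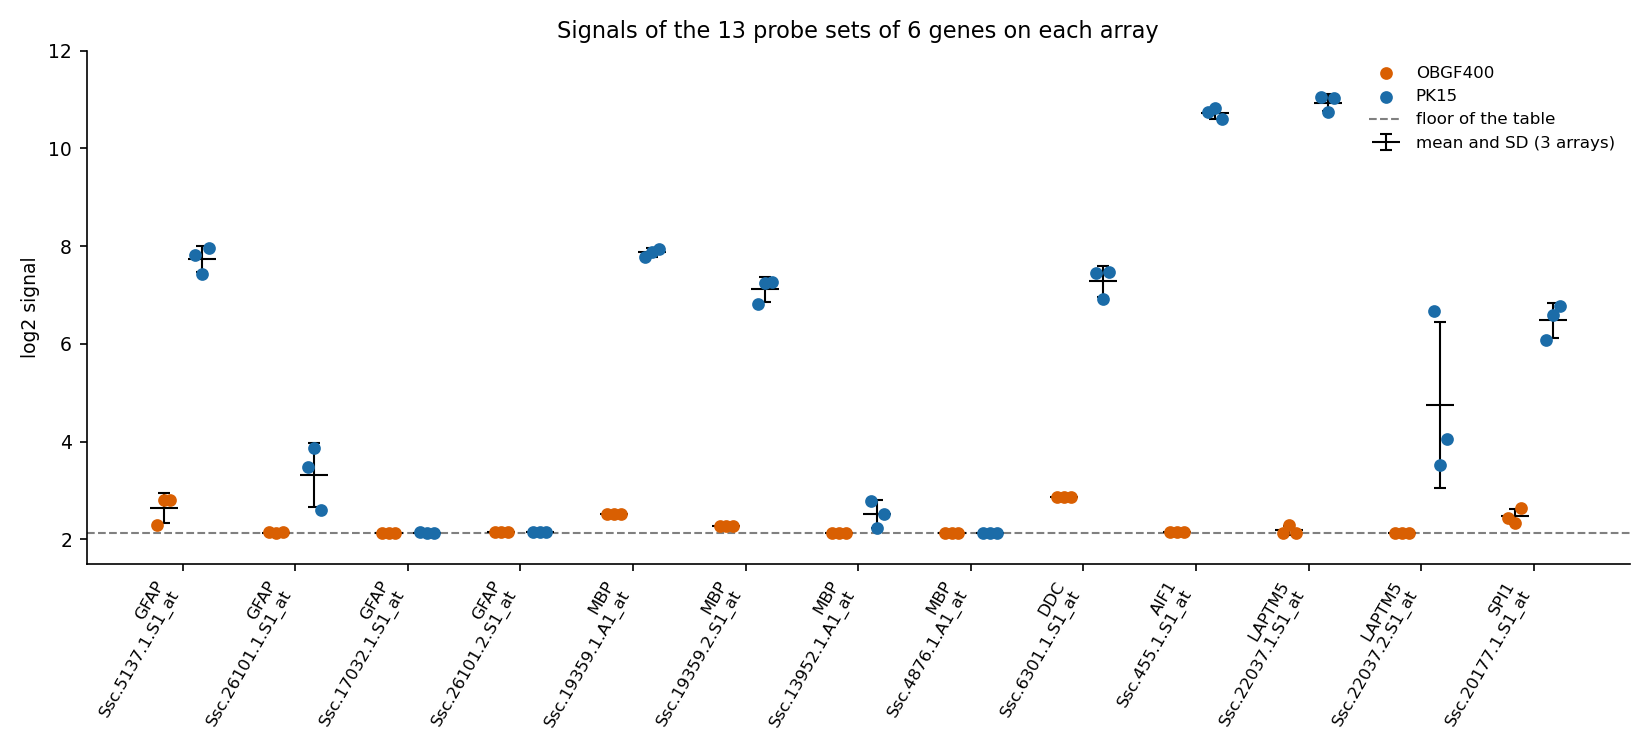
Log2 signal of each of the 13 probe sets (horizontal axis, named by gene and probe set) on the 3 OBGF400 arrays (orange, left) and the 3 PK15 arrays (blue, right). Black bars are means with SD over 3 arrays and the dashed line is the floor at 2.13. All PK15 arrays lie above 6 for 7 probe sets, and 3 lie at the floor in both lines.

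DDC is represented by 1 probe set, annotated to a RefSeq mRNA, so its signal has no second reading. Ssc.6301.1.S1_at read 2.87 on each OBGF400 array, against 7.45, 6.92 and 7.48 in PK15, with means of 2.87 and 7.28 ± 0.32 (SD, n = 3). The lines did not overlap and differed by -4.41 (-2.26 with 32 added). The 3 equal OBGF400 values are no measure of precision, since 6.76% of all probe sets repeat 1 value above the minimum (to within 0.001) on the 3 OBGF400 arrays.

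The macrophage marker AIF1 was at the floor in OBGF400, where its single probe set Ssc.455.1.S1_at read 2.15 on each array, against 10.74, 10.82 and 10.60 in PK15. The difference was -8.58 (-5.56 with 32 added), and the PK15 SD was 0.11. The probe set of its paralog AIF1L was looked up after the values were seen. It read 3.59 on each OBGF400 array, against 4.24, 3.59 and 3.59 in PK15 (3.80 ± 0.38, SD, n = 3), with an adjusted p of 0.541 in limma's fit over all probe sets. Because the same low value is repeated across both lines, nothing is read from this probe set.

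LAPTM5 has a strong and a weak probe set. Ssc.22037.1.S1_at read 2.14, 2.28 and 2.13 in OBGF400, against 11.04, 10.74 and 11.03 in PK15, a difference of -8.75 (-5.77 with 32 added). Ssc.22037.2.S1_at, which shares the first number of its name, read 2.13 on each OBGF400 array, against 6.68, 3.51 and 4.05 in PK15. Both separated the lines in the same direction with no overlap. On the weak probe set PK15 replicate 1 was the highest array, and the difference was -2.62, or -1.65 without that array. The related lysosomal gene LAPTM4A, also looked up afterwards, went the other way at 1 of its 2 probe sets, with 14.1 ± 0.05 in OBGF400 against 13.4 ± 0.06 in PK15 (SD, n = 3), which is a difference of 0.68 (adjusted p = 3.31e-04 in limma). This difference is smaller than the 0.85 by which the poly-A controls differed between the lines, so its direction depends on the scaling.

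SPI1 was dimmer. Its single probe set, Ssc.20177.1.S1_at, annotated to a RefSeq mRNA, read 2.44, 2.33 and 2.63 in OBGF400, against 6.09, 6.58 and 6.77 in PK15. The lines did not overlap, with a difference of -4.02 (-1.70 with 32 added). The 3 SPI1 arrays of PK15 had an SD of 0.35, and those of OBGF400 an SD of 0.15.

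**Figure D2:**
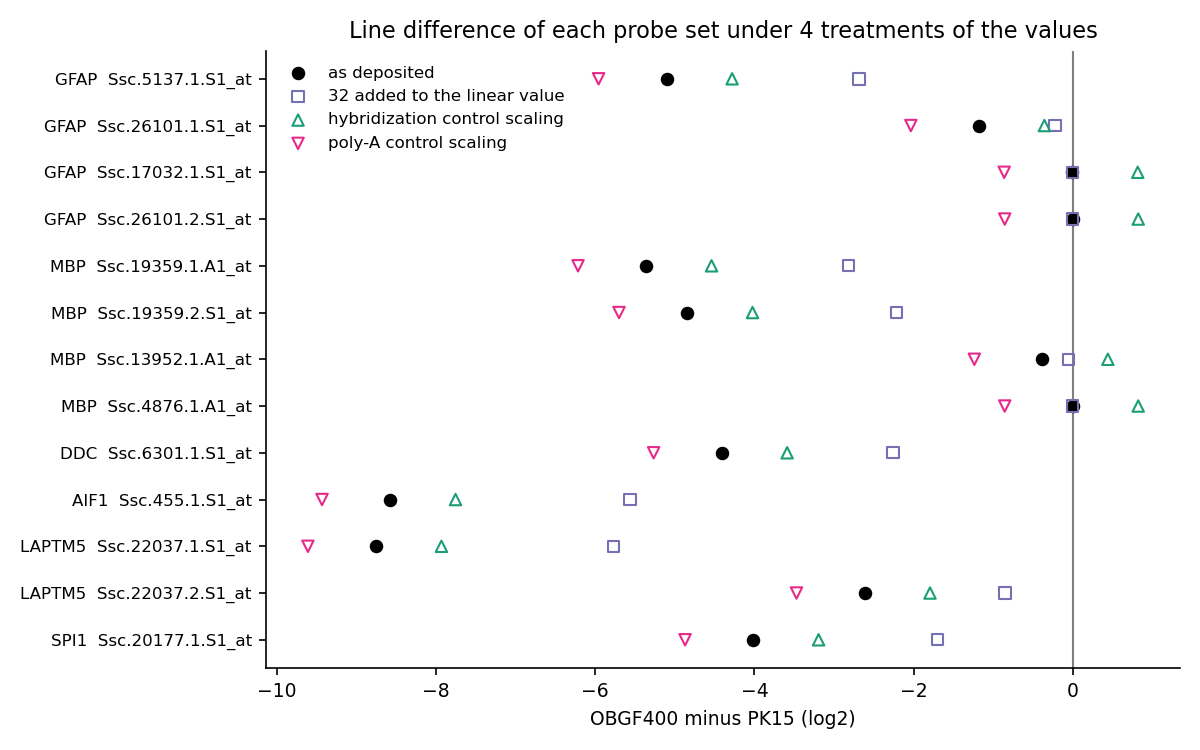
Difference between the lines (OBGF400 minus PK15, log2, horizontal axis) for each of the 13 probe sets under 4 treatments of the values: as deposited (black dots), with 32 added to the linear value (squares), and scaled on hybridization (upward triangles) or poly-A controls (downward triangles). The brightest probe set of each gene stays below 0 throughout, from -1.70 for SPI1 with 32 added to -9.61 for LAPTM5 after poly-A control scaling, while the probe sets at the floor in both lines sit at 0.82 or -0.85 after control scaling.

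Of the 13 probe sets, 7 were called lower in OBGF400 by limma at an adjusted p under 0.05, where 21.7% of all probe sets were (41.9% in either direction). Every PK15 array exceeded every OBGF400 array for 10 of the 13, where the same held for 26.1% of all probe sets. Because the genes were chosen on this contrast, nothing is read from these counts. The same 7 calls held when any 1 array was left out. An eighth was gained without a PK15 array in each case: the weak LAPTM5 probe set without replicate 1, MBP Ssc.13952.1.A1_at (-0.53) without replicate 2 and GFAP Ssc.26101.1.S1_at (-1.53) without replicate 3. Other genes on this array also had only part of their probe sets called lower. Over all genes, 152 had several probe sets and at least 1 called lower by 3 log2 units or more, and in 71 of them (46.7%) all probe sets were called lower. In 44 (28.9%), GFAP and MBP among them, another probe set of the gene was at the floor on all 6 arrays. Among the 13 such genes with 4 probe sets, 4 had all of them called lower and 6, GFAP and MBP included, had only 1 or 2.

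The other genes of each lineage were compared through lists that leave the 6 genes out, with the probe set of highest mean standing for a gene. Over all 6765 genes limma called 36.8% lower and 23.9% higher in OBGF400, and 15.5% lay at the floor on all 6 arrays. Scaled on hybridization controls, 1259 of all genes were called lower and 4487 higher, and on poly-A controls 5219 lower and 763 higher. The median difference was 0 in the astrocyte, myelin, monoamine and myeloid lists. Genes at the floor on all 6 arrays, 28.6% to 58.8% of each of these lists, have differences of about 0 as deposited. Those genes partly fix the medians, so nothing is read from them.

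Astrocyte genes were called in both directions. Of 21 measured, 4 were lower in OBGF400, 3 were higher and 14 were not called, with 8 (38.1%) at the floor in both lines. The glial and general developmental factor NFIB was lower by the greatest margin, at 2.26 ± 0.14 in OBGF400 against 8.67 ± 0.28 in PK15 (SD, n = 3), which is a difference of -6.41 (adjusted p = 1.58e-05 in limma) on the brighter of its 2 probe sets, both of which were called lower. HES1, a Notch target, was also lower (-2.49), while the small falls of the glutamine synthetase GLUL (-0.30) and of clusterin, CLU (-0.42), turned to 0.53 and 0.41 after hybridization control scaling. Higher in OBGF400 were the matrix protein TNC (9.54), the gap junction gene GJA1 (6.51) and ID3, an inhibitor of basic helix-loop-helix factors (3.16). Of the defining astrocyte markers measured, the glutamate transporters SLC1A2 and SLC1A3 were at the floor on all 6 arrays. S100B averaged 2.51 in OBGF400 against 2.20 in PK15 and was not called, and the folate enzyme ALDH1L1 averaged 5.197 in OBGF400 against 3.404 in PK15 (difference 1.79, adjusted p = 0.0513 in limma). ALDH1L1 was called higher under median centring (1.71), both control scalings (2.62 and 0.94), without dim probe sets (adjusted p = 0.0344 in limma) and without OBGF400 replicate 1 (2.16). With the list scaled on hybridization controls 19 genes were called higher and 2 lower, and on poly-A controls 4 higher and 17 lower. These counts include the 8 genes at the floor, whose sign is set by the scaling.

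Among 9 other intermediate filament genes, relatives of GFAP, 3 were lower, 2 were higher and 4 were not called. The lower ones were the simple-epithelium keratins KRT8 (-12.14), KRT18 (-11.56) and KRT19 (-11.40). SYNM, a filament partner of muscle and glia, was higher by 3.00. VIM, the closest partner of GFAP in astrocytes, was bright in both lines, at 15.14 in OBGF400 and 15.04 in PK15. Its small difference of 0.11 became -0.75 after poly-A control scaling. The list gave 5 higher and 3 lower on hybridization controls, 1 higher and 8 lower on poly-A controls and 1 higher and 4 lower with median centring.

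Myelin genes were mostly at the floor. Of 17 measured, 10 (58.8%) were at the floor on all 6 arrays, among them MAG, an adhesion protein of myelin, and the lineage factors OLIG1 and OLIG2. The 4 called lower were FA2H, MAL, ENPP2 and CNP, and QKI, an RNA-binding protein, was the 1 called higher (3.19). FA2H, which hydroxylates fatty acids of myelin and epithelial sphingolipids, was at the floor in OBGF400, against 9.46 ± 0.32 in PK15 (SD, n = 3), which is a difference of -7.33 (adjusted p = 1.08e-05 in limma). MAL, a membrane raft protein of both myelin and epithelia, averaged 5.47 ± 0.08 in OBGF400 against 9.13 ± 0.09 in PK15 (SD, n = 3), which is a difference of -3.66. CNP, an enzyme of myelin, differed by -1.14 at 1 of 2 probe sets, which became -0.23 with 32 added, and its call was lost after hybridization control scaling (-0.31) and at an adjusted p threshold of 0.01. ENPP2, which makes lysophosphatidic acid, was called at an adjusted p of 0.048 in limma (-2.80), and the call was lost when any single array other than PK15 replicate 3 was left out, with 32 added (-0.92), under a trended robust variance and with the replicate block. SOX10, the glial lineage factor, read 2.17 in OBGF400 and 2.46 ± 0.50 in PK15 (SD, n = 3) and was not called. Hybridization control scaling gave 13 myelin genes higher and 3 lower, poly-A control scaling 1 higher and 16 lower, and quantile normalization 2 higher and 4 lower.

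Around DDC the monoamine genes moved in both directions. Of 14 measured, 5 were lower in OBGF400, 5 were higher and 4 were not called, where 36.8% of all genes were lower. QDPR, which regenerates tetrahydrobiopterin, the cofactor of the hydroxylases that act ahead of DDC, averaged 10.47 ± 0.06 in OBGF400 against 12.43 ± 0.10 in PK15 (SD, n = 3), which is a difference of -1.95 (adjusted p = 2.78e-05 in limma) on the brighter of its 2 probe sets, both of which were called lower. GCHFR, which regulates the first enzyme of tetrahydrobiopterin synthesis, differed by -1.79, and SPR, its last enzyme, by -1.76. PTS, the enzyme between them, differed by -0.47, which turned to 0.36 after hybridization control scaling, and its call was lost without any single array other than PK15 replicate 2. PDXK, which makes the pyridoxal phosphate that DDC itself needs, was also lower (-2.10). MAOA, which breaks down amines, ran opposite to DDC: it averaged 10.43 ± 0.02 in OBGF400 against 2.30 ± 0.02 in PK15 (SD, n = 3), which is a difference of 8.14 (adjusted p = 2.19e-08 in limma). The transcription factors NR4A2 (6.59) and GATA3 (6.05), both known from catecholamine neurons, were also higher in OBGF400, as was the amino acid transporter chain SLC3A2 (0.77), which became -0.09 after poly-A control scaling. PNMT, which makes adrenaline, the serotonin transporter SLC6A4, the oxidase MAOB and the dopamine receptor DRD2 were at the floor on all 6 arrays. TH, DBH, GCH1, SLC6A3 and SLC18A2 were not analysed here. The list gave 10 higher and 4 lower after hybridization control scaling and 3 higher and 10 lower after poly-A control scaling.

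DDC is also a gene of the kidney tubule. Of 11 other tubule genes measured, 2 were lower, 2 were higher and 7 were not called, with 3 (27.3%) at the floor on all 6 arrays. Those 3 were SLC22A8, ALPL and LHX1. The other uncalled genes averaged 2.46 (LRP2), 2.37 (AQP1), 2.25 (SLC22A6) and 5.06 (GGT1) in PK15. HNF4A, a nuclear receptor of proximal tubule and liver, averaged 3.78 ± 0.31 in OBGF400 against 9.25 ± 0.30 in PK15 (SD, n = 3), which is a difference of -5.47 on the brighter of its 2 probe sets, both of which were called lower. The brush border peptidase DPP4 differed by -5.87. The peptidase ANPEP (2.65) and the transcription factor GATA3 (6.05) were higher in OBGF400. The split was 9 higher and 2 lower on hybridization controls, 2 higher and 9 lower on poly-A controls and 3 higher and 2 lower after quantile normalization.

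Myeloid genes were likewise called in both directions. Of 47 measured, 6 were lower in OBGF400, 6 were higher and 35 were not called, and 25 (53.2%) were at the floor on all 6 arrays. The defining leukocyte genes PTPRC, which encodes CD45, ITGAM, which encodes CD11b, and ITGB2, the integrin chain that pairs with it, were among those 25. So were IRF8 and CEBPA, transcription factors that work with PU.1, and FCER1G, a signalling chain of Fc receptors. Lower in OBGF400 were, among others, the small GTPase RAC2, the invariant chain CD74 and the complement gene C1QC. RAC2 averaged 4.44 ± 0.49 in OBGF400 against 8.64 ± 0.08 in PK15 (SD, n = 3), which is a difference of -4.19 (adjusted p = 2.21e-04 in limma) at 1 of 2 probe sets. CD74 was at 2.25 in OBGF400 against 5.78 ± 0.44 in PK15 (-3.54), and C1QC at 2.20 in OBGF400 against 5.30 ± 0.82 in PK15 (-3.10, or -1.003 with 32 added). CD86 averaged 4.64 in OBGF400 against 6.69 ± 0.42 in PK15 (-2.05, or -1.26 with 32 added). CTSS, called lower at 2 of 3 probe sets, averaged 3.52 in OBGF400 against 4.84 ± 0.50 in PK15. Its difference of -1.32 (adjusted p = 0.0121 in limma) became -0.50 with 32 added.

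The 6 myeloid genes that were higher in OBGF400 held the remaining defining markers that were measured. The adaptor TYROBP, which pairs with myeloid receptors, averaged 6.32 ± 0.08 in OBGF400 against 3.98 ± 0.40 in PK15 (SD, n = 3), which is a difference of 2.34 (adjusted p = 7.53e-04 in limma). The lipopolysaccharide receptor CD14 differed by 1.03 at 1 of 2 probe sets, a call lost without OBGF400 replicate 1 (0.89) and under poly-A control scaling (0.17). The proteoglycan SRGN differed by 7.74 and the actin bundler LCP1 by 1.01, which became 0.15 without a call under poly-A control scaling. The transcription factor CEBPB differed by 0.76 and the oxidase subunit CYBA by 0.71, which turned to -0.09 and -0.14 after poly-A control scaling. The summed linear signal of the 47 genes was 11847 to 12297 in OBGF400 and 7691 to 8475 in PK15. CEBPB alone gave 66.8% of this sum in OBGF400 and 58.6% in PK15. Of 12 lymphoid genes, 11 (91.7%) were at the floor on all 6 arrays, and CD3E was higher in OBGF400 by 1.503. Of the 5 defining myeloid markers measured, PTPRC, ITGAM and ITGB2 were thus at the floor on all 6 arrays. CD14 (5.92 in OBGF400, 4.89 in PK15) and TYROBP were above it in both lines. The defining markers CSF1R and CD68 were not analysed here. The part of other cell types in the AIF1, LAPTM5 and SPI1 signals was not tested. The summed linear signal of the lymphoid genes was 86.3 to 99.95 in OBGF400 and 61.7 to 66.8 in PK15. Hybridization control scaling gave 39 myeloid genes higher and 6 lower, poly-A control scaling 2 higher and 41 lower, and median centring 6 higher and 9 lower. Leaving out the genes at the floor on all 6 arrays, these counts were 14 and 6, 2 and 16, and 6 and 8. Scaling gave 12 lymphoid genes higher on hybridization controls, and 1 higher and 11 lower on poly-A controls.

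**Figure D3:**
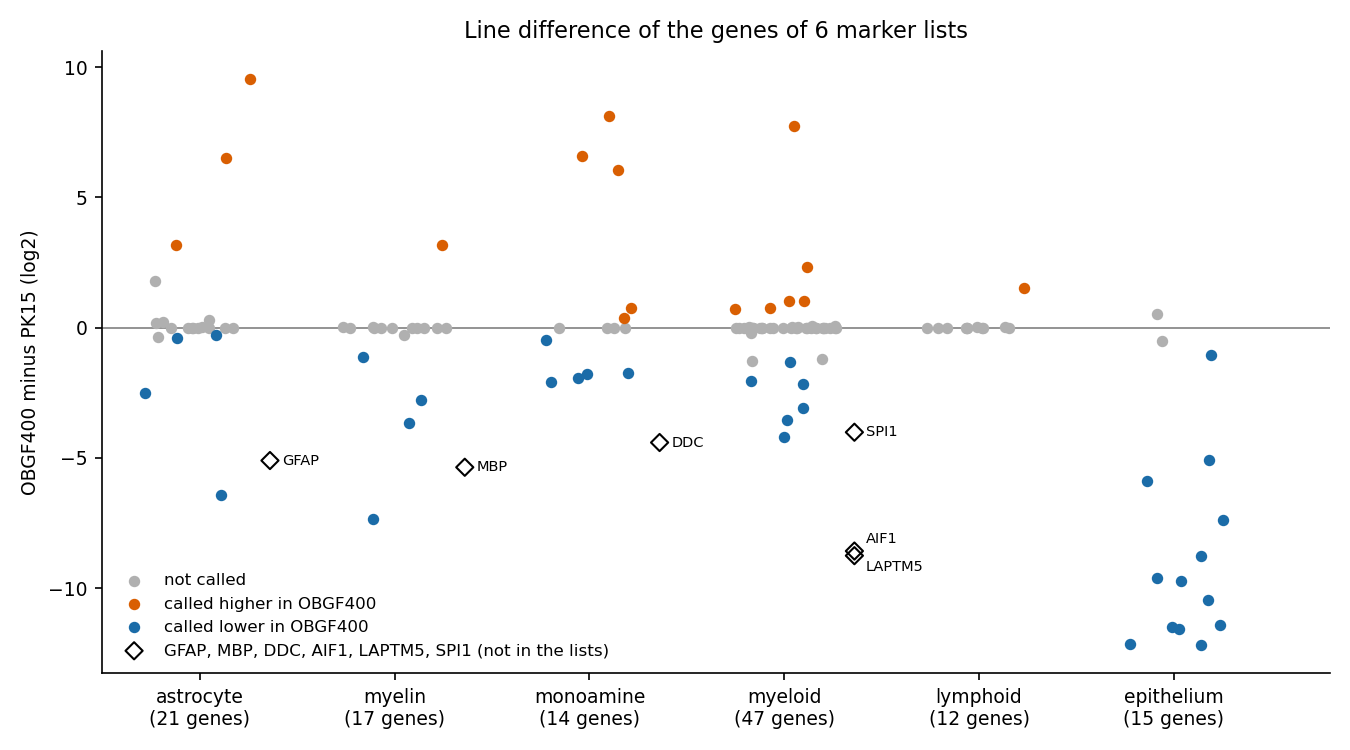
Difference between the lines (OBGF400 minus PK15, log2, vertical axis) of each measured gene (dots, spread sideways at random) in 6 lists, coloured by limma call at an adjusted p under 0.05. Open diamonds mark the brightest probe set of GFAP, MBP, DDC, AIF1, LAPTM5 and SPI1, which are not in the lists. The astrocyte, myelin, monoamine and myeloid lists have medians of 0 with calls on both sides, whereas 13 of the 15 epithelial genes were called lower in OBGF400. Those medians are partly fixed by genes at the floor on all 6 arrays, which the epithelial list does not have.

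The nearest measured genes on either side in the RefSeq gene order of the pig assembly Sscrofa11.1 were examined for each of the 6 genes, 36 neighbours in all. They lay 1 to 19 places away in that order, so genes that were not examined lie between many of them. Of these, 10 were called lower in OBGF400 and 9 higher, against 36.8% and 23.9% of all genes. Around AIF1, the neighbours LTB, TNF, LTA, PRRC2A, BAG6 and APOM gave 0 calls by limma on their brightest probe sets. Of these, 1 (BAG6, 0.38) had an unadjusted p under 0.05, and LTB, LTA and APOM were at the floor on all 6 arrays. Over their several probe sets, 1 of 2 for PRRC2A and 1 of 3 for BAG6 were called higher in OBGF400. With the probe sets of a gene averaged, PRRC2A (0.85) and BAG6 (0.66) were called higher. BAG6 was also called higher under quantile normalization (0.39), but turned to -0.48 after poly-A control scaling. Of the LAPTM5 neighbours, which lay 4 to 9 places away, 5 of 6 were also lower in OBGF400. FABP3, a fatty acid carrier, differed by -4.20, PTPRU by -1.51 and MECR by -1.29. SRSF4 (-0.76) and SNRNP40 (-0.70) became 0.06 and 0.12 after hybridization control scaling. Of the 4 probe sets of SNRNP40, 3 were called lower and 1 was called higher. SERINC2 was not called (-0.50). It was called lower under quantile normalization (-0.58), median centring (-0.58), poly-A control scaling (-1.36) and without PK15 replicate 3 (-0.69).

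SPI1 had measured neighbours, 2 to 6 places away, that were mostly higher in OBGF400. Of its neighbours 5 were higher, among them the lysosomal phosphatase ACP2 (3.14), the DNA damage gene DDB2 (2.82) and the sterol receptor NR1H3 (0.96), and PTPMT1 was lower (-1.05). Over their several probe sets, 2 of 3 for ACP2 and 1 of 3 for DDB2 were called higher, and 1 of 2 for PTPMT1 was called lower. The call was lost for NR1H3 after poly-A control scaling (0.11) and for PTPMT1 after hybridization control scaling (-0.22). PSMC3, at 0.59, became -0.26 after poly-A control scaling. Of the GFAP neighbours 3 were lower, from -0.94 for EFTUD2 to -1.95 for PLCD3, and the other 3 were not called. Among those 3, DCAKD (-0.85) was called lower under median centring (-0.93), poly-A control scaling (-1.70) and without PK15 replicate 3 (-1.19). The EFTUD2 call was lost after hybridization control scaling (-0.12). Of the MBP neighbours 1 was lower and 2 were higher, led by TSHZ1 (2.38), which was called at 1 of its 3 probe sets. The call was lost for the lower one, ZADH2 (-0.92), after hybridization control scaling (-0.10). For TM2D3 (1.03) it was lost after poly-A control scaling (0.18) and at an adjusted p threshold of 0.01. Of the DDC neighbours 2 were higher, CD46 by 0.85 and EGFR by 0.73, which became 0 and -0.13 after poly-A control scaling. EGFR was called at 1 of its 2 probe sets.

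**Figure D4:**
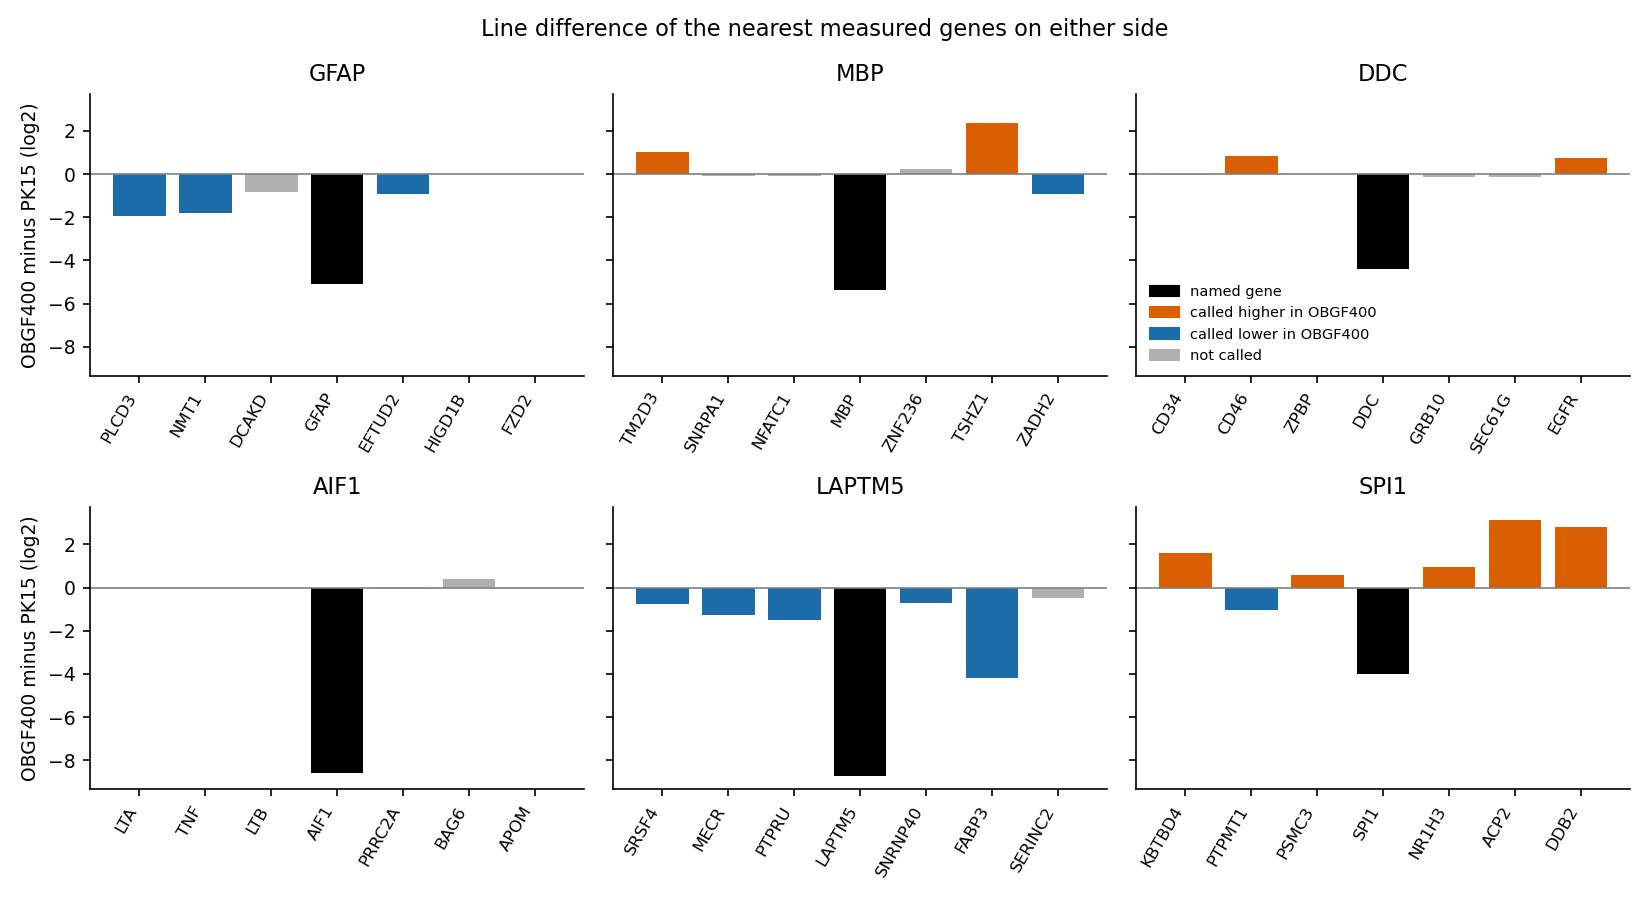
Difference between the lines (OBGF400 minus PK15, log2, vertical axis) of each of the 6 genes (black bar, brightest probe set) and of the 3 nearest measured genes on either side, in gene order (horizontal axis, not to scale). Bars are coloured by limma call. Neighbours are also shown by their brightest probe set. On it the AIF1 neighbours gave 0 calls, 5 neighbours of LAPTM5 were lower and 5 of SPI1 were higher in OBGF400.

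The genes with the most similar profile were found by the root mean square difference of log2 signals over the 6 arrays, after centring each gene on its own mean. With 3 arrays in each of 2 lines this measure mostly reflects the size of the line difference. AIF1 was among the 3 genes closest to LAPTM5, at 0.19, behind the tight junction gene OCLN at 0.13 and CAVIN2, a caveola protein, at 0.18. CAVIN2 was also the closest to AIF1, at 0.12, followed by MFSD6 and GGACT. GFAP was closest to GATA6 (0.18), SPAG5 and PSMB8, and MBP to VNN2 (0.09), CXADR and CIDEB. DDC was closest to TMEM117 (0.02), CCDC30 and C6H1orf210, and SPI1 to the mucin gene MUC4 (0.15), SCARB1 and ICA1.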

How the data were processed

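Total RNA of 6 pools, 3 per line, was labelled with biotin from 8 µg each by a 3′ one-cycle method, per the labels' protocols. The deposited values are 1 log2 signal per probe set and array, and per the submitters' processing notes the authors used the package affy, whose version is not given in the sources used here. How signals were background-corrected, summarised and normalized is not given there either. Array means were 5.41 to 5.42, and 25.8% to 27.3% of probe sets lay at an array's minimum. The table used here has no detection calls, and the number of arrays limits the precision.

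From these values 124 control probe sets were left out. Symbols came from the platform annotation: 10069 probe sets had 1 symbol, 198 several and 13732 none. By Entrez number 9961 were found in RefSeq (Sscrofa11.1), with 0 renamed. No build is named for the probes, so no coordinates are given, and no sequences were used here. Line differences were tested in limma 3.58.1 (plain eBayes, two-sided, Benjamini-Hochberg over all probe sets or all genes, threshold 0.05) in R 4.3.3, with tables in Python 3.11.15. The fit was also tried on simulated data, in which only bright probe sets were changed and no floor was set. That trial therefore says nothing about calls that rest on values near the floor. The 6 genes, the lists and the alternatives were chosen with earlier results of these data known. The genes named are the 6, per list the 4 most raised and 4 most lowered called genes, fixed defining markers, the 3 nearest measured genes on each side and the 3 most similar profiles; others were named after their values were seen. Alternatives were quantile normalization, median centring, scaling on hybridization or poly-A controls, leaving out probe sets below the 25th percentile of means, adding 32 to linear values, a trended robust variance, an adjusted p threshold of 0.01, a replicate block, averaging the probe sets of each gene and leaving out each array. A named gene of the myeloid list is not reported here.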

Additional observations from a re-analysis of the deposited data

How the results depend on the processing

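As deposited, 10060 probe sets were called between the lines, 48.2% of them higher in OBGF400. Median centring gave 19464 (25.9% higher), scaling on hybridization controls 21558 (86.2% higher) and scaling on poly-A controls 21593 (12.8% higher). Of all 23999 probe sets, 14431 were called lower under median centring and 18830 under poly-A control scaling, against 5214 as deposited. All 13 probe sets of the 6 genes were called lower under median centring and under poly-A control scaling, against 7 as deposited. Of the 6 gained, 3 were at the floor in both lines, where the scaling itself sets the difference, and 3 were above it in PK15. The genes called lower in the astrocyte list were 4 as deposited, 2 on hybridization controls and 17 on poly-A controls. Over all 6765 genes these counts were 2492, 1259 and 5219. The genes called lower on poly-A controls were 16 of the myelin list, 10 of the monoamine list and 41 of the myeloid list, and at a threshold of 0.01 the myelin list had 2. Leaving out each array gave 8898 to 9483 probe sets, 7 to 8 of the 13, 4 astrocyte, 3 to 4 myelin, 4 to 5 monoamine and 6 to 8 myeloid genes. The replicate block gave 8661 probe sets and 7 of the 13 probe sets, and same-numbered arrays of the lines did not deviate together (correlations over probe sets of 0.04, 0.01 and 0.02), so the numbers were not taken as pairs. Under hybridization control scaling the differences of CLU, GLUL, GRB10, NFATC1, PTS, SEC61G, SNRNP40, SNRPA1, SOX10 and SRSF4 turned to 0.41, 0.53, 0.70, 0.72, 0.36, 0.69, 0.12, 0.72, 0.53 and 0.064, and that of SNRPA1 to 0.57 with the mean of its probe sets. Under poly-A control scaling those of BAG6, CEBPB, CYBA, EGFR, PSMC3, S100B, SLC3A2, VIM and ZNF236 turned to -0.48, -0.092, -0.14, -0.13, -0.26, -0.55, -0.087, -0.75 and -0.64. Apart from the scalings, which are constants per array, the cause was not tested. No call on the brightest probe set of the 6 genes was lost under any alternative run. Because these genes were chosen for a large difference on these arrays, nothing is read from this.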
